A study of Mus musculus with 4 samples.

Results

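The genes described here are the Wnt ligands, their Frizzled (Fzd) receptors and the secreted antagonists of the Sfrp and Dkk families, 37 of the 22609 genes counted in neonatal mouse testes. They were taken by symbol alone, as every gene name that starts with Wnt, Fzd, Sfrp or Dkk followed by a digit, which gave 19 Wnt, 10 Fzd, 4 Sfrp and 4 Dkk genes. Polyadenylated RNA of whole testes at postnatal day 3 was sequenced in 4 libraries. In 2 of them thyroid hormone receptor alpha 1, the product of Thra, was wild type, and in 2 it was a dominant-negative form (mutant). All animals were on a mainly C57BL/6J background and came from crosses of AmhCre mice, in which the Amh promoter drives Cre recombinase in Sertoli cells, with heterozygous carriers of the TRαAMI allele. The sources used here do not say which animals of either group carried AmhCre or TRαAMI, nor whether a library held 1 animal or several. The series asks which genes change, directly or indirectly, when the receptor is disabled in Sertoli cells.

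Wnt proteins are lipid-modified growth factors that act over short distances. At the cell surface they bind a Frizzled receptor, often with the co-receptor Lrp5 or Lrp6, which stabilises beta-catenin and lets it switch on genes together with TCF/LEF factors; other Wnt signals steer cell polarity and movement instead. Sfrp proteins capture Wnts outside the cell, and most Dkk proteins block Lrp5 and Lrp6. In the fetal gonad, Wnt4 favours the ovarian pathway and is held down in the testis, where beta-catenin activity in Sertoli cells has to stay low.

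Gene counts per library ranged from 10230512 to 15636832. Thra itself was measured at 398 and 257 CPM (counts scaled to the size of the library) in wild-type libraries 1 and 2 and at 237 and 194 CPM in mutant libraries 1 and 2, and counts per gene cannot tell the mutant from the normal transcript. Transcripts of other cells also differed between the groups. Summed over 10 skeletal muscle markers they stood at 19.2 and 17.9 CPM in wild type against 2640 and 690 CPM in mutant libraries 1 and 2. Of 12 germ cell markers, 10 fell by the test given below (83.3%, against 2.52% of all tested genes). In bulk tissue a change in the number of cells of a type and a change in RNA per cell cannot be told apart. The labels do not say that the libraries came from separate animals, so the p-values speak only of the spread among these 4 libraries.

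Wnt9a and Wnt4 were called higher in mutant testes, and no member of the 4 families was called lower. Of the 37 genes, 36 had a count in some library and 29 passed the filter on low counts and were tested: 13 Wnt, 10 Fzd, 4 Sfrp and 2 Dkk genes. By the quasi-likelihood test of edgeR, a gene was called at a p below 0.05 after adjustment over all 14788 tested genes. That test called 2 members higher, 6.9% of those tested, against 3.15% of all tested genes, and 0 lower, against 2.52%. At an unadjusted p below 0.05, 8 members were higher (27.6%, against 12.9% of all genes) and 3 were lower (10.3%, against 12.6%). DESeq2 and limma voom also called 0 lower. Those 8 were Wnt2, Wnt4, Wnt5a, Wnt9a, Wnt11, Fzd2, Fzd4 and Sfrp2, and the 3 were Fzd3, Fzd5 and Fzd6. The median log2 fold change, mutant minus wild type, was 0.18 over the 29 members and -0.01 over all tested genes. Both mutant libraries lay above both wild-type libraries in 10 of the 29 members, or 34.5% against 28.3% of all tested genes, and below them in 4, or 13.8% against 29%.

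**Figure D1:**
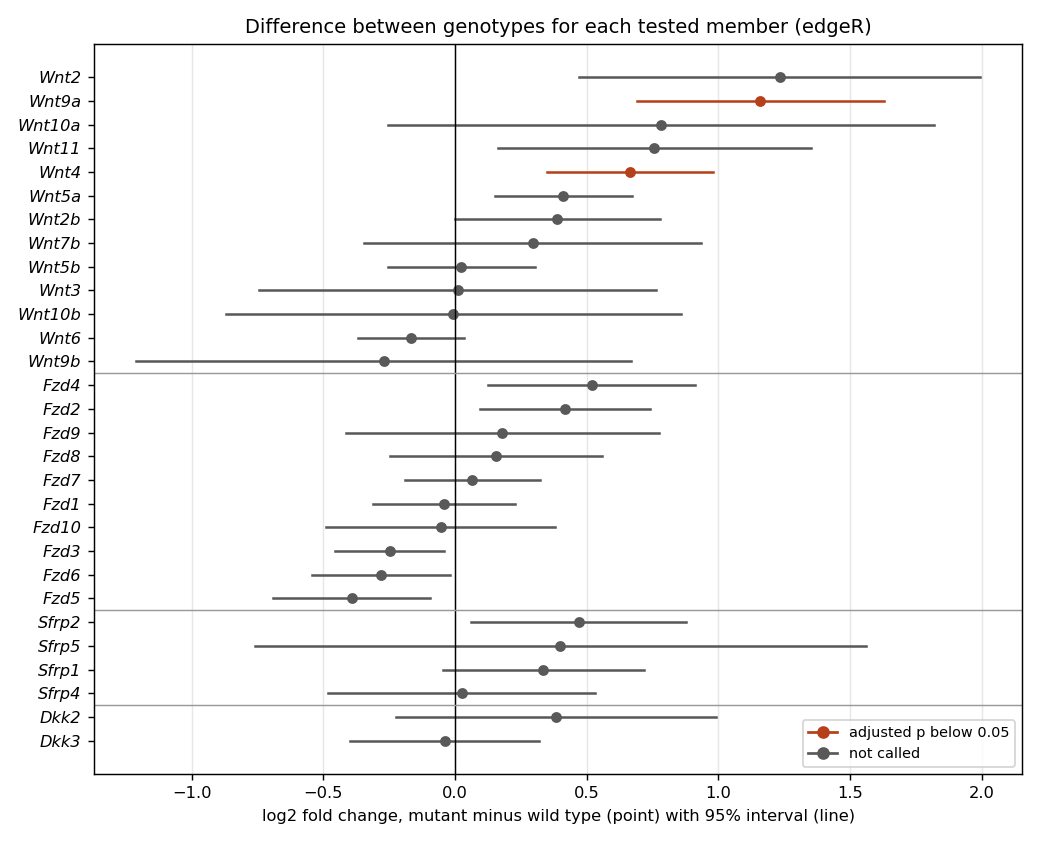
Log2 fold change of each tested member, mutant minus wild type, from edgeR (points) with its 95% interval (lines), grouped as Wnt, Fzd, Sfrp and Dkk genes from top to bottom. Wnt9a at 1.16 and Wnt4 at 0.66 are the 2 called genes; Wnt2 at 1.23 has the highest estimate but a wide interval.

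Wnt9a encodes a ligand best known from developing joints. It lies on chromosome 11 (59120430 to 59147054, plus strand, mm9). Its level was 12.8 and 9.41 CPM in wild-type libraries 1 and 2 and 28.3 and 22.3 CPM in mutant libraries 1 and 2, so that every mutant value was well above every wild-type value. The group means were 11.1 ± 2.43 and 25.3 ± 4.26 CPM (SD, n = 2 each), a 2.23-fold rise with a log2 fold change of 1.16 ± 0.20 (SE) and an adjusted p of 0.0226. Leaving out a wild-type library ended the call: the log2 fold change was 1.41 with omission of wild-type library 1 (adjusted p = 0.0811) and 0.96 with omission of wild-type library 2 (adjusted p = 0.0932). The call held without either mutant library, at 0.99 without replicate 1 and 1.33 without replicate 2.

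Wnt4 lies on chromosome 4 (136833404 to 136855641, plus strand, mm9). Its level was 24.2 and 20.6 CPM in wild-type libraries 1 and 2 and 33.9 and 37.1 CPM in mutant libraries 1 and 2. The means were 22.4 ± 2.54 and 35.5 ± 2.23 CPM (SD, n = 2 each), with a log2 fold change of 0.66 ± 0.14 (SE) and an adjusted p of 0.0345. The groups did not overlap. The call did not hold with omission of wild-type library 1 (0.79, adjusted p = 0.0955), with omission of wild-type library 2 (0.55, adjusted p = 0.121) and with omission of mutant library 2 (0.59, adjusted p = 0.0626).

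**Figure D2:**
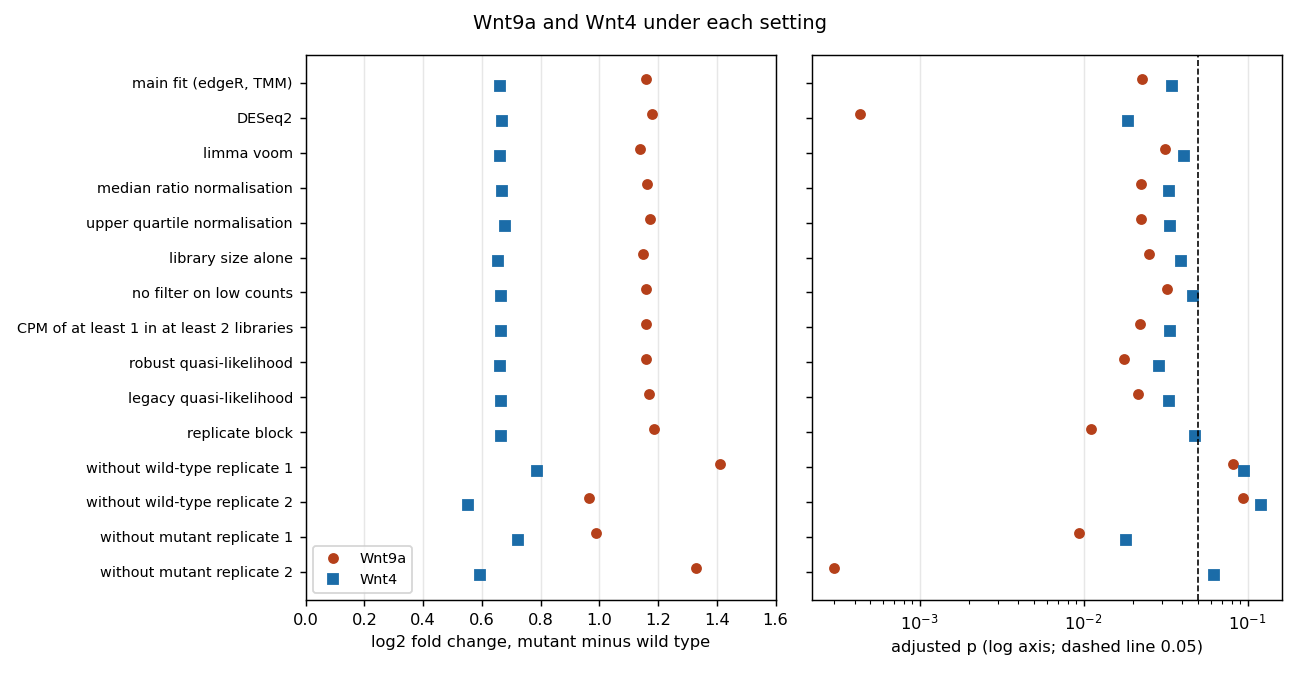
Log2 fold change (left) and adjusted p on a log axis (right) of Wnt9a (circles) and Wnt4 (squares) in the main fit and under each other setting; the dashed line marks 0.05. The fold changes stay near 1.16 and 0.66 under other tools, scalings and filters. Both calls are lost where a wild-type library is left out, and that of Wnt4 also where mutant library 2 is left out.

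The promoters of both called genes are shown because they share a composition, which was looked at after the called genes were known. The 250 bases before the start of Wnt4 are 85.2% G and C and those of Wnt9a 84.4%. These values are above 99.9% and 99.8% of the 32851 RefSeq promoter windows (GRCm38.p6), whose median is 52.4%. The Wnt4 window is chr4:137277385-137277634 and the Wnt9a window chr11:59306680-59306929, both on the plus strand, and the sequences are from RefSeq. Capitals mark the GC box GGGCGG or its reverse complement, at 8 and 5 places, with overlapping matches run together.
Wnt4: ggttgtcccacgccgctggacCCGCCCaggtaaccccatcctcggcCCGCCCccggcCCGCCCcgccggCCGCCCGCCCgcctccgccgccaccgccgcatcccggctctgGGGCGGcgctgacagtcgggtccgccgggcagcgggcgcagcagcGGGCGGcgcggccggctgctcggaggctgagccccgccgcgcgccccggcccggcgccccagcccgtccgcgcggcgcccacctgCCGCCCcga
Wnt9a: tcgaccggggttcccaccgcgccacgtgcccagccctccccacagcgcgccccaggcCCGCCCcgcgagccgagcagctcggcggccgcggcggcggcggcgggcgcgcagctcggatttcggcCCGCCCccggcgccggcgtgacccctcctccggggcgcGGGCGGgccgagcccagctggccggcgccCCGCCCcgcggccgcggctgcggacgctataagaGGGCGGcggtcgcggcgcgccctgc
High GC content was common among the members, 25 of which had a window: their 28 windows had a median of 69.4%. The highest of these, 87.6%, belonged to Wnt3a, the neighbour of Wnt9a, which had 3 counts in the 4 libraries together. On either strand, the GC box was present in 20 of the 28 member windows and in 32.7% of all windows. The GC box holds only G and C, so this count is not separate from the GC content. The hexamer AGGTCA, which nuclear receptors bind, was found in neither printed window, in 1 member window (Wnt16) and in 14.0% of all windows. As 2 copies in the same orientation 4 bases apart, an arrangement that thyroid hormone receptors bind, it occurred in 0 member windows and 5 of all 32851. The TCF/LEF core CTTTGA was found in 4 member windows, those of Dkk1, Fzd1, Wnt11 and Wnt5b, and in 13.8% of all windows. These are letters in short windows, and they say nothing of factor binding here or elsewhere in the genes.

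Among the other ligands, Wnt2, Wnt11 and Wnt5a came closest to a call. Wnt2, a mesenchymal ligand of lung and heart development, was measured at 2.85 and 2.35 CPM in wild-type libraries 1 and 2 and at 7.73 and 4.98 CPM in mutant libraries 1 and 2. The groups were apart, but only 62 and 163 reads stood behind them, and the log2 fold change of 1.23 ± 0.33 (SE) had an adjusted p of 0.0668. Wnt11, a ligand of cell movement and kidney branching, was measured at 5.56 and 3.72 CPM in wild type and at 8.19 and 7.85 CPM in mutant libraries 1 and 2 (0.76 ± 0.26, adjusted p = 0.118).

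Wnt5a drives outgrowth and polarity without beta-catenin and was the second most abundant Wnt transcript. It was measured at 139 and 118 CPM in wild-type libraries 1 and 2 and at 185 and 158 CPM in mutant libraries 1 and 2. The groups did not overlap, and the log2 fold change was 0.41 ± 0.11 (SE; adjusted p = 0.0708). It was called by DESeq2 (adjusted p = 0.0281) and, at 0.52, with omission of mutant library 2 (adjusted p = 0.0157). The other fits that left out 1 library did not call it, with 0.30 and an adjusted p of 0.262 when mutant library 1 was dropped, 0.53 (adjusted p = 0.116) for wild-type library 1 and 0.29 (adjusted p = 0.226) for wild-type library 2. Wnt2 passed when mutant library 2 was dropped, at 1.55 (adjusted p = 0.00612), but not when mutant library 1 was, at 0.92 (adjusted p = 0.178).

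**Figure D3:**
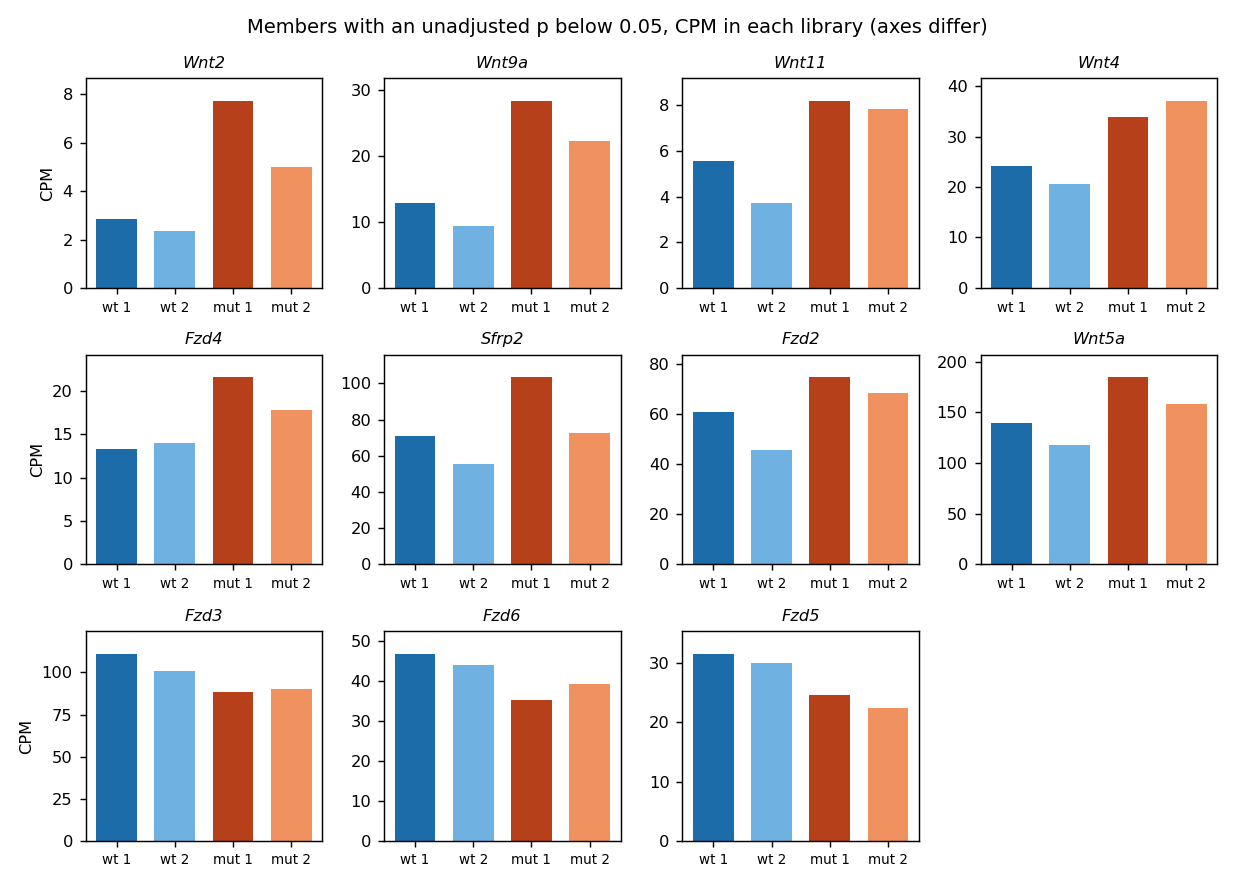
CPM in each library (bars; wt, wild type; mut, mutant; numbers are replicates) of the 11 members with an unadjusted p below 0.05, ordered by log2 fold change; axes start at 0 and differ between panels. In the first 8 genes both mutant bars are above both wild-type bars, and in Fzd3, Fzd6 and Fzd5 both are below.

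Per length of exon, Wnt6 outweighed all other Wnt transcripts together. Its mean over the 4 libraries was 125 CPM per kilobase, followed by 19.2 for Wnt5a, 12.9 for Wnt5b, 6.90 for Wnt4, 6.35 for Wnt2b and 5.47 for Wnt9a. The SD over libraries was 9.94 for Wnt6, 3.63 for Wnt5a and 0.675 for Wnt5b, so these 3 levels were apart. Over all libraries the values of Wnt4, Wnt2b and Wnt9a overlapped, with SDs of 1.87, 1.27 and 2.60 that include the difference between the groups. In wild type Wnt9a, at 3.86 and 2.83 CPM per kilobase, lay below both Wnt4, at 5.77 and 4.91, and Wnt2b, at 6.10 and 4.83; in the mutants it overlapped both. Wnt6, an epithelial ligand in many organs, was measured at 269 and 276 CPM in wild type and at 230 and 256 CPM in mutant libraries 1 and 2. Its difference was small and not called: the log2 fold change was -0.17, with a 95% interval from -0.37 to 0.03 (adjusted p = 0.272). Wnt5b, the close relative of Wnt5a, had overlapping groups, with 32.2 and 35.2 CPM in wild type and 32.6 and 35.7 CPM in mutant libraries 1 and 2 (log2 fold change 0.02, interval -0.26 to 0.30).

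Per length, the summed level of all Wnt genes was similar in the 4 libraries, at 186 and 182 CPM per kilobase in wild type and 182 and 192 in mutant libraries 1 and 2. In plain CPM the groups did not overlap, with sums of 536 and 502 in wild type and 571 and 577 in mutant libraries 1 and 2. The makeup of the sum per kilobase differed. Wnt6 made up 70.0% and 73.3% of the sum in wild type and 61.0% and 64.2% in mutant libraries 1 and 2. Wnt9a went the other way, with 2.07% and 1.55% in wild type and 4.67% and 3.48% in the mutants, as did Wnt4, with 3.10% and 2.70% against 4.45% and 4.60%. These shares are descriptions, since an exact permutation test of 2 libraries against 2 (two-sided) cannot give a p below 0.333.

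**Figure D4:**
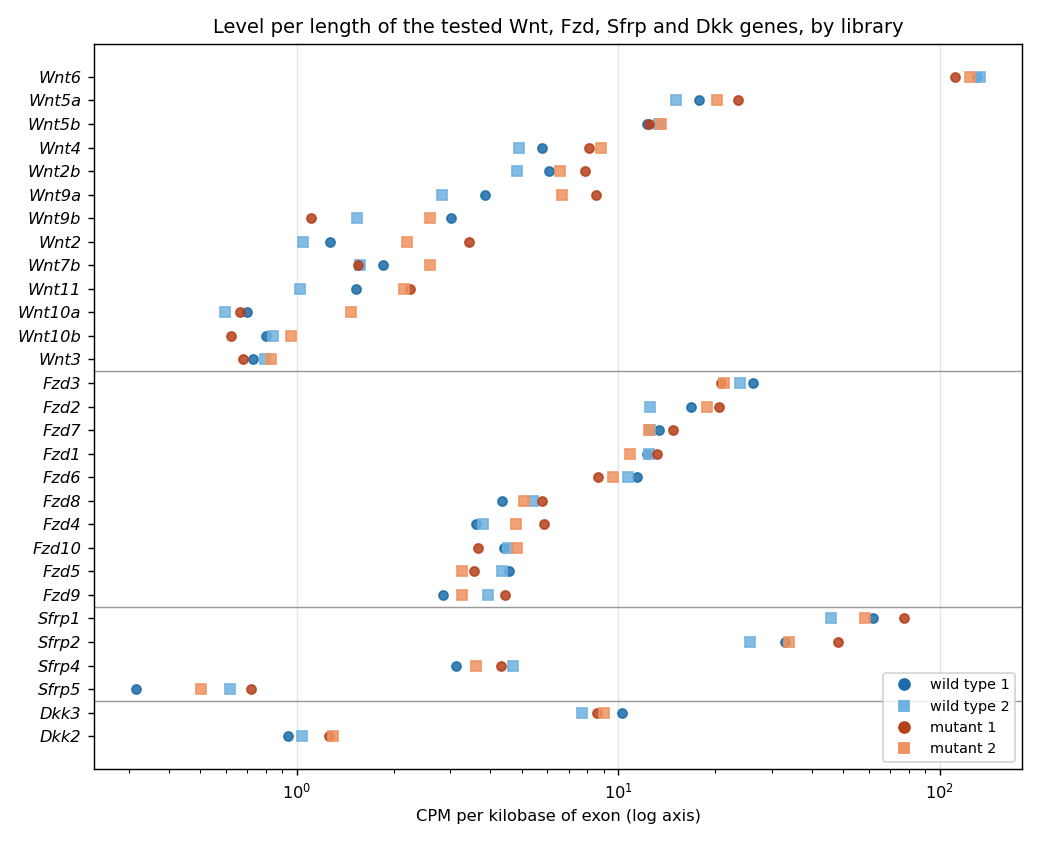
CPM per kilobase of exon (log axis) of the 29 tested members in each library (circles, replicate 1; squares, replicate 2; blue, wild type; orange to brown, mutant), ordered by mean level within the Wnt, Fzd, Sfrp and Dkk families. Wnt6, Fzd3, Sfrp1 and Dkk3 lead their families, and Wnt9a and Wnt4 show mutant points clear of the wild-type points.

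Of the remaining tested ligands, Wnt2b, a mesenchymal ligand, was at 21.8 and 17.3 CPM in wild type and 28.2 and 23.5 CPM in mutant libraries 1 and 2, with groups that did not overlap and an adjusted p of 0.198. Wnt3, Wnt7b, Wnt9b, Wnt10a and Wnt10b had overlapping groups and adjusted p-values from 0.319 for Wnt10a to 0.991 for Wnt10b. The value of Wnt10a rested on mutant library 2, which had 57 of its 113 reads.

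Wnt9b, which in the urogenital system is made by the mesonephric duct, varied more within the groups than between them. It was measured at 13.6 CPM in wild-type library 1 and 6.96 CPM in wild-type library 2, and at 5.005 CPM in mutant library 1 and 11.7 CPM in mutant library 2. Cdh16, a cadherin of kidney and duct epithelium, was picked from the 7 markers of rete and ducts after its values were seen and is the one that stood in the same order of libraries as Wnt9b, at 61.9 and 41.5 CPM in wild type and 28.7 and 55.1 CPM in mutant libraries 1 and 2. The others did not: Aldh1a3 was lowest in mutant library 2, at 14.3 CPM, and Lhx1 was at 6.61 and 6.37 CPM in wild type and 9.37 and 10.2 CPM in mutant libraries 1 and 2. The 7 markers, none of them called and none at 0, summed to 197 and 167 CPM in wild type and 148 and 220 CPM in mutant libraries 1 and 2. Wnt7b, an epithelial ligand, was highest in the library where this sum was highest, at 11.4 CPM in mutant library 2 against 6.82 to 8.19 CPM in the other libraries. The part of duct tissue in these values was not tested. With wild-type library 1 left out the Wnt9b log2 fold change turned from -0.27 to 0.32, and with omission of mutant library 2 it was -1.07 (adjusted p = 0.0759).

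**Figure D5:**
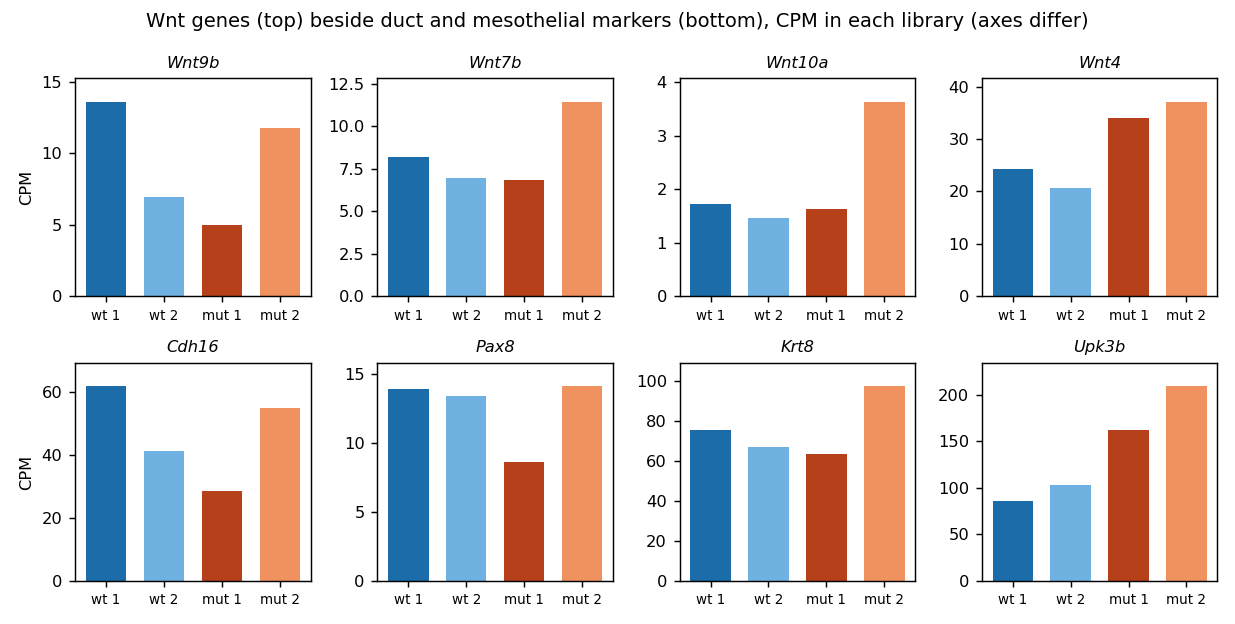
CPM in each library (bars; wt, wild type; mut, mutant) of 4 Wnt genes above and, below, the duct markers Cdh16, Pax8 and Krt8 and the mesothelial marker Upk3b; axes start at 0 and differ between panels. Wnt9b and Cdh16 are high in wild-type library 1 and mutant library 2, while Wnt4 and Upk3b are higher in both mutant libraries. Upk3b is 1 of 7 mesothelial and surface epithelial markers, of which Krt18 is not higher in both.

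Of the 19 Wnt genes, 6 were too scarce to test. Wnt1 had 0 counts in all 4 libraries, and Wnt3a, Wnt8a and Wnt8b had 3, 2 and 3 counts in all. Wnt7a had 4 counts across the wild-type pair and 6 across the mutant pair, a library-size-adjusted ratio of 1.32 (exact 95% interval 0.314 to 6.38). Wnt16 had 2 and 8, a ratio of 3.53 (0.704 to 34.1). These intervals cover counting error only, and both include 1.

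The pairs of Wnt genes that sit side by side in the genome did not share a level. Wnt6 and Wnt10a lie 6196 bases apart on chromosome 1, at 125 and 0.858 CPM per kilobase. Wnt9a and Wnt3a lie 16175 bases apart on chromosome 11, at 5.47 and 0.0194. On chromosome 15, Wnt10b was at 0.806 CPM per kilobase, and no read fell on Wnt1, 11706 bases away. Wnt9b and Wnt3, 24328 bases apart on chromosome 11, were closer, at 2.06 and 0.760.

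Of the 10 Frizzled receptors, all were tested and none was called, 5 had positive and 5 negative fold changes, and the family median was 0.01. At an unadjusted p below 0.05 in edgeR, 2 were higher (20%, against 12.9% of all tested genes) and 3 lower (30%, against 12.6%). DESeq2 and limma voom called 0. Fzd2, a receptor for Wnt5a, was measured at 61.1 and 45.6 CPM in wild type and at 74.7 and 68.4 CPM in mutant libraries 1 and 2 (log2 fold change 0.42 ± 0.14 SE, adjusted p = 0.115). Fzd4, which also binds the growth factor norrin in blood vessels, was at 13.3 and 14.0 CPM in wild type and 21.6 and 17.7 CPM in mutant libraries 1 and 2 (0.52 ± 0.17, adjusted p = 0.11). In both genes all mutant values were above all wild-type values.

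Fzd3 and Fzd6, relatives that act in planar cell polarity, and Fzd5, a beta-catenin receptor, had the opposite sign. Fzd3, the most abundant Frizzled transcript per length at 23.1 CPM per kilobase, was measured at 111 and 101 CPM in wild type and at 88.3 and 90.3 CPM in mutant libraries 1 and 2 (log2 fold change -0.25 ± 0.09 SE, adjusted p = 0.135). Fzd6 was at 46.7 and 43.8 CPM against 35.2 and 39.2 CPM (-0.28 ± 0.11, adjusted p = 0.171). The Fzd5 levels were 31.5 and 30.0 CPM in wild type and 24.6 and 22.5 CPM in mutant libraries 1 and 2 (-0.39 ± 0.13, adjusted p = 0.108). In these 3 genes all mutant values were below all wild-type values. The 95% intervals of the log2 fold changes were -0.46 to -0.04 for Fzd3, -0.54 to -0.02 for Fzd6 and -0.69 to -0.10 for Fzd5.

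The other Frizzled genes had overlapping groups. Fzd7 was measured at 64.2 and 60.3 CPM in wild type and 70.8 and 59.9 CPM in mutant libraries 1 and 2, a log2 fold change of 0.07 (interval -0.19 to 0.32). Fzd1, which with Fzd2 and Fzd7 forms a subfamily of beta-catenin receptors, was at 53.8 and 54.3 CPM against 57.7 and 47.7 CPM, a log2 fold change of -0.04 (interval -0.31 to 0.23). Fzd8, the close relative of Fzd5, was at 0.16 (interval -0.25 to 0.56), Fzd9 at 0.18 (interval -0.41 to 0.77) and Fzd10 at -0.06 (interval -0.49 to 0.38). Per length, Fzd2, Fzd7 and Fzd1 followed Fzd3, with means of 17.2, 13.3 and 12.2 CPM per kilobase and SDs over libraries of 3.46, 1.05 and 0.952, with 2.49 for Fzd3. Every Fzd3 value, from 20.9 to 26.3, lay above every Fzd2 value, from 12.6 to 20.6, whereas the values of Fzd2, Fzd7 and Fzd1 overlapped.

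All 4 Sfrp genes had positive fold changes, with a median of 0.37, and none was called. Sfrp1 and Sfrp2 are both needed, redundantly, for normal male genital development in mice. Sfrp1, the most abundant antagonist transcript per length at 60.8 CPM per kilobase, was measured at 270 and 200 CPM in wild type and at 339 and 256 CPM in mutant libraries 1 and 2. Its groups overlapped, and the log2 fold change was 0.34 ± 0.17 (SE; adjusted p = 0.25). Sfrp2 was measured at 71.0 and 55.4 CPM in wild type and at 103 and 72.8 CPM in mutant libraries 1 and 2 (0.47 ± 0.18, adjusted p = 0.148), with mutant library 2 just above wild-type library 1. Without mutant library 2, Sfrp1 was at 0.52 and Sfrp2 at 0.70. Without mutant library 1, which held the most of both, Sfrp1 was at 0.12 and Sfrp2 at 0.20. Sfrp4 was at 12.7 and 19.0 CPM against 17.5 and 14.6 CPM, a log2 fold change of 0.03 (interval -0.48 to 0.53), and Sfrp5 was scarce, with 20 counts across the wild-type pair and 30 across the mutant pair.

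Dkk3 was the main Dickkopf transcript, at 8.88 CPM per kilobase against 1.13 for Dkk2. It encodes a divergent member of the family that is not a regular Lrp blocker. Dkk3 was measured at 34.4 and 25.9 CPM in wild type and at 28.8 and 30.2 CPM in mutant libraries 1 and 2, with overlapping groups and a log2 fold change of -0.04 (interval -0.40 to 0.32). Dkk2, a modulator of Lrp signalling, was at 3.45 and 3.82 CPM in wild type and 4.64 and 4.79 CPM in mutant libraries 1 and 2 (0.38 ± 0.26 SE, adjusted p = 0.399). The main Lrp blocker Dkk1 had 0 counts across the wild-type pair and 3 across the mutant pair, and Dkk4 had 1 count in all, which is at or under the floor of 3 counts used here, so no fold is given.

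Other genes of the pathway, in 5 lists, were called in 3 of 76 tested cases: Gpc3 and Cd44 rose and Daam2 fell. The calls made up 2.63% higher and 1.32% lower, against 3.15% and 2.52% of all tested genes. Because the lists were chosen with earlier results of these data known, their shares here and below are descriptions only. The lists' median log2 fold change was 0.15, and 51 of the 76 genes (67.1%) had positive values against 49.2% of all tested genes. At an unadjusted p below 0.05 in edgeR, 26.3% were higher and 5.26% lower, against 12.9% and 12.6% of all tested genes. Both mutant libraries lay above both wild-type libraries in 48.7%, against 28.3%, and below them in 14.5%, against 29%. Of 13 genes for Wnt acylation, export, removal and co-reception, 1 was called higher, none lower, and the median was 0.34. At an unadjusted p below 0.05 in edgeR, 8 were higher (61.5%, against 12.9% of all tested genes) and 1 lower (7.69%, against 12.6%). Both mutant libraries lay above both wild-type libraries in 9 (69.2%, against 28.3%) and below them in 1 (7.69%, against 29%). The called gene was Gpc3, a cell-surface proteoglycan that can present Wnts, at 296 and 258 CPM in wild type and 421 and 383 CPM in mutant libraries 1 and 2 (log2 fold change 0.54 ± 0.10 SE, adjusted p = 0.0273). Wls, the carrier that brings Wnts to the cell surface, was at 133 and 150 CPM against 180 and 173 CPM (0.32 ± 0.09, adjusted p = 0.0735). The acyltransferase gene Porcn was at 0.00 (interval -0.55 to 0.55), Lrp5 at 0.34 (adjusted p = 0.0796) and Lrp6 at 0.24 (adjusted p = 0.135).

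Genes that beta-catenin signalling induces in many tissues were tested in 18 cases, of which 1 was called higher and none lower. Their median log2 fold change was 0.25. At an unadjusted p below 0.05 in edgeR, 4 were higher (22.2%, against 12.9% of all tested genes) and 0 lower (against 12.6%). Both mutant libraries lay above both wild-type libraries in 10 of the 18 (55.6%, against 28.3%) and below them in 2 (11.1%, against 29%). Axin2, the most general of these targets, was measured at 46.8 and 32.4 CPM in wild type and at 36.9 and 42.2 CPM in mutant libraries 1 and 2, with a log2 fold change of -0.01 and a 95% interval from -0.40 to 0.39. Lef1 was at 2.25 and 2.25 CPM against 3.64 and 3.38 CPM (0.63 ± 0.30 SE, adjusted p = 0.237). The called gene was Cd44, a hyaluronan receptor also abundant on leukocytes and stromal cells, at 19.6 and 17.2 CPM in wild type and 55.2 and 41.3 CPM in mutant libraries 1 and 2 (1.38 ± 0.17, adjusted p = 0.0086). Of 24 cytoplasmic and nuclear transducers edgeR called 0, and the beta-catenin gene Ctnnb1 was at 0.19 (interval -0.03 to 0.41). At an unadjusted p below 0.05, 5 were higher (20.8%, against 12.9% of all tested genes) and 1 lower (4.17%, against 12.6%). The smallest p-values of that list belonged to the coactivator genes Bcl9 (0.41, adjusted p = 0.0705) and Bcl9l (0.51, adjusted p = 0.0928).

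Of 14 planar polarity genes 1 was called lower (7.14%, against 2.52% of all tested genes) and 0 higher (against 3.15%). At an unadjusted p below 0.05 in edgeR, 2 were higher (14.3%, against 12.9%) and 2 lower (14.3%, against 12.6%). The called gene was Daam2, a formin that binds Dishevelled. It was at 183 and 195 CPM in wild type and 147 and 131 CPM in mutant libraries 1 and 2 (log2 fold change -0.44 ± 0.09 SE, adjusted p = 0.0344). Its paralog Daam1 was at 0.45 (adjusted p = 0.0647). Of 7 further inhibitors edgeR called 0. At an unadjusted p below 0.05, 1 was higher (14.3%, against 12.9% of all tested genes) and 0 lower (against 12.6%). That gene was Sostdc1, a secreted inhibitor of Bmp and Wnt signals. It was at 4.58 and 3.04 CPM in wild type and 11.5 and 7.15 CPM in mutant libraries 1 and 2 (1.22 ± 0.33, adjusted p = 0.0662). The calls of Gpc3, Cd44 and Daam2 did not hold when either wild-type library was dropped, and that of Daam2 also with omission of mutant library 2.

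Several cell type marker lists also differed between the groups. Here rose and fell mean called higher and called lower, as 3.15% and 2.52% of all tested genes were. Of 7 mesothelial and surface epithelial markers, 5 rose, and the sum of the 7 was 297 and 327 CPM in wild type and 437 and 576 CPM in mutant libraries 1 and 2. Upk3b, a uroplakin of mesothelium, was at 85.7 and 103 CPM against 162 and 209 CPM. Krt18 had the only negative log2 fold change of the list, -0.13, with overlapping groups at 94.3 and 91.3 CPM against 60.9 and 107 CPM. Both this list and Wnt4 were highest in mutant library 2, but in wild type the list was higher in library 2 and Wnt4 in library 1. The duct and macrophage sums were also highest in mutant library 2. Of 10 interstitial stroma markers none was called, and the sum was 9881.5 and 7122 CPM in wild type and 12084 and 11849 CPM in mutant testes. Wnt9a, Wnt2, Wnt5a and Sfrp2 were each higher in mutant library 1 than in mutant library 2, by 1.27, 1.55, 1.17 and 1.42 times. They were also higher in wild-type library 1 than in wild-type library 2, by 1.36, 1.21, 1.18 and 1.28 times. Other members, such as Sfrp1 and Fzd4, were higher in mutant library 1 too, and Wnt4 was not. Of 10 muscle markers 9 rose, with a sum 3.82 times higher in mutant library 1 than in mutant library 2. In wild-type libraries 1 and 2 that sum was 19.2 and 17.9 CPM. Of 10 macrophage and leukocyte markers 3 rose (169 and 194 CPM summed in wild type, 265 and 337 CPM in mutant libraries 1 and 2). Of 12 Sertoli cell markers 1 rose and 3 fell (5819 and 6193 CPM against 4742 and 4752 CPM). None of 6 Leydig cell markers and none of 3 tested cartilage and bone markers was called, and 3 of 6 adipocyte markers fell. Among the mesothelial, stromal, muscle, macrophage and Sertoli markers only the muscle gene Myl1 was at 0, in wild-type library 2. The part of these cells in the Wnt values was not tested.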

How the data were processed

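The authors deposited 1 table of gene counts, for which the submitters' processing notes name build mm9 and, as tools, HTSeq, DESeq2, TopHat 1.4.0 and CASAVA 1.8.1. The deposited values were handled as estimated counts, since percentages stand below the genes in the same columns, but every gene value is a whole number, so rounding changed nothing. Reads in no gene (13.8% to 17.3% of counted reads) and ambiguous reads (0.602% to 0.726%) were left out. The strand setting of the counting is not given in the sources used here. Reads in the stretches that Sfrp2, Wnt5a, Wnt7b and Wnt11 share with opposite-strand exons of other genes in GENCODE M1 therefore cannot be separated. The longest shared stretch was 224, 233, 38 and 364 bases, of 2153, 7822, 4413 and 3633 bases of exon. No columns of other samples were present.

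Genotype was the only term of a quasi-likelihood model in edgeR 4.0.16 under R 4.3.3, with TMM scaling, the default expression filter (minimum count 10, minimum total 15), and the legacy and robust options off. Tests were two-sided, with Benjamini-Hochberg adjustment over 14788 genes. The script was tested on simulated data. Levels are CPM on TMM-adjusted library sizes, and per kilobase of merged GENCODE M1 exons (NCBIM37, the assembly of mm9), where the longest entry of a symbol was used. SE is the fold change over the square root of F.

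Other settings were DESeq2 1.42.0, limma voom 3.58.1, other scalings and filters, a replicate block, and each library left out. Genes were called at an adjusted p below 0.05. Full values were given for called members, those with an unadjusted p below 0.05 and the 4 highest per family, and for called genes of the pathway lists or those with the smallest p. The GC content of promoters and the GC box were looked at after the called genes were known, and the duct markers set beside Wnt9b were picked after their values were seen. The members and lists were chosen with earlier results of these data known.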

Additional observations from a re-analysis of the deposited data

How the results depend on the processing

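Wnt9a and Wnt4 were called by edgeR, DESeq2 and limma voom and under each scaling, filter and dispersion setting tried, with log2 fold changes from 1.14 to 1.18 and from 0.66 to 0.68. Replicate numbers do not pair the samples by the labels, and the differences between replicates 1 and 2 of the 2 groups correlated at -0.03 across genes. With the replicate block 5 members were called higher, adding Sfrp2, Wnt2 and Wnt5a. Leaving out 1 library gave from 0 to 5 members called higher and 0 lower, where the lone library is assumed to vary like the other group. Over all genes the higher calls went from 466 to 34 and the lower from 373 to 40 without wild-type replicate 1, to 60 and 88 without wild-type replicate 2, and the higher to 818 without mutant replicate 2. Without a filter 282 and 218 were called, and limma voom called 309 higher. Of the pathway genes, 2 were called higher and 1 lower, against 5 higher by DESeq2, 4 with the replicate block, 10 without mutant replicate 2 and 0 without either wild-type library; 0 were called lower without a filter, where the Daam2 call was lost. Members lower at an unadjusted p below 0.05 went from 3 to 0 by DESeq2 and without wild-type replicate 1, and to 1 without mutant replicate 1; those higher went from 8 to 5 without wild-type replicate 2. The median log2 fold change of all tested genes moved by less than 0.05 under each scaling.

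Under other tools, scalings and models only fold changes near 0 changed sign. In fits without 1 library larger ones did too, among them Sfrp5 (0.40 in the main fit), Wnt7b (0.29) and Wnt9b (-0.27). No change of sign came with a call. Wnt3 was at -0.00788 by DESeq2, at -0.000407 by limma voom, at -0.0055 with the legacy option and at -0.0176 with the replicate block, and Wnt10b at 0.00762 with upper quartile scaling. Signs also changed in fits without 1 library: the log2 fold change ranged from -0.22 to 0.19 for Dkk3, -0.00664 to 0.31 for Fzd8, -0.056 to 0.41 for Fzd9, -0.26 to 0.33 for Sfrp4, -0.0619 to 0.90 for Sfrp5, -0.16 to 0.12 for Wnt3, -0.0483 to 0.0842 for Wnt5b, -1.07 to 0.32 for Wnt9b, -0.39 to 0.22 for Wnt10b, -0.29 to 0.11 for Fzd10, -0.0569 to 0.18 for Fzd7, -0.18 to 0.0922 for Fzd1 and -0.16 to 0.58 for Wnt7b. Wnt1, Wnt3a, Wnt7a, Wnt8a, Wnt8b, Wnt16, Dkk1 and Dkk4 were too scarce for the depth of these libraries, and 2 libraries per group limit every comparison.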
